A study of Mus musculus with 8 samples.

Results

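The genes described here are 44 enzymes of central carbon metabolism: the enzymes of glycolysis, the 2 lactate dehydrogenase genes, the pyruvate dehydrogenase complex with its kinase Pdk1, the tricarboxylic acid (TCA) cycle with cytosolic counterparts of its enzymes, and the pentose phosphate pathway. They were chosen by name among the non-control probes of an Agilent mouse array, and 44 of 44 were found among its 27656 distinct gene names. Expression was measured in CD4 T cells sorted into 4 groups, with 2 arrays in each: naive cells, 2 sets named for their CD44 label (CD44lo and CD44hi), and regulatory T cells, called Treg. All cells came from the spleen and lymph nodes, pooled, of male C57BL/6 mice aged 15 weeks, and the series title gives the mice as Ox40-cre/ROSA-YFP. In that design cre is driven from the gene of the T cell activation receptor Ox40 and switches on the fluorescent protein YFP, so that cells that have expressed Ox40 stay marked. The labels give neither the sort markers nor the YFP status of a group beyond its name, and do not say whether both samples of a group came from separate animals; the p-values therefore rest on a spread between samples that could be technical only.

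Glycolysis splits glucose into pyruvate in the cytosol, and pyruvate is either reduced to lactate by lactate dehydrogenase or carried into the mitochondrion, where the pyruvate dehydrogenase complex turns it into acetyl-CoA for the TCA cycle. Pdk1 phosphorylates and inhibits that complex, and the pentose phosphate pathway draws on the same glucose 6-phosphate for NADPH and ribose. Resting naive T cells are known to rely mainly on mitochondrial oxidation, whereas activated and dividing T cells take up more glucose and raise glycolysis, in which the transcription factors Myc and Hif1a have known roles.

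Hk2 and Pdk1 carried the largest differences between groups, in opposite directions, and Pfkp was highest in CD44hi by its brightest probe. Ldha, called in none of the comparisons, held the most copies of the motifs searched. For these reasons the promoters of these 4 members are shown. Each is the RefSeq window from 250 bases before to 50 bases after the gene start, 5′ to 3′ on the gene's strand, on GRCm38.p6: Hk2 at chr6:82774405-82774704 on the minus strand, Pdk1 at chr2:71872974-71873273 on the plus strand, Pfkp at chr13:6648722-6649021 on the minus strand and Ldha at chr7:46845554-46845853 on the plus strand. Capitals mark ACGTG or GCGTG, the core of the hypoxia response element bound by Hif1a, on either strand; where a core on each strand overlaps, they spell CACGTG, the E-box bound by Myc and related factors.
Hk2: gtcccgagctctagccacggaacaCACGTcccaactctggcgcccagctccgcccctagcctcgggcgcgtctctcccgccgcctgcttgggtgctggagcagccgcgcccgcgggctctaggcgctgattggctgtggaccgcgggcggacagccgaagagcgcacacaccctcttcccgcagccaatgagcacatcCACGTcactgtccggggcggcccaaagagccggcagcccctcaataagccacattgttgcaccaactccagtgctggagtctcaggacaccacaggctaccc
Pdk1: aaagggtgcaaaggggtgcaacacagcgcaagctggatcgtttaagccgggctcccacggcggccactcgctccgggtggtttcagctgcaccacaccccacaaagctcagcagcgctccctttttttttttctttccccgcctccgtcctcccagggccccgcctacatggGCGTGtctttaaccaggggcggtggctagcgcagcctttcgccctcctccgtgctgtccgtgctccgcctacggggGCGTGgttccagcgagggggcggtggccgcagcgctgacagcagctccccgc
Pfkp: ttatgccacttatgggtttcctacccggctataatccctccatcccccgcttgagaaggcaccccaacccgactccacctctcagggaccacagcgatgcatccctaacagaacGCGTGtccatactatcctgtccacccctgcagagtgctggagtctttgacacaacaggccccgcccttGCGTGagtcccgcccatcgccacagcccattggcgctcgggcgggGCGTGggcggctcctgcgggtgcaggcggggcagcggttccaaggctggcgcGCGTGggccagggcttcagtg
Ldha: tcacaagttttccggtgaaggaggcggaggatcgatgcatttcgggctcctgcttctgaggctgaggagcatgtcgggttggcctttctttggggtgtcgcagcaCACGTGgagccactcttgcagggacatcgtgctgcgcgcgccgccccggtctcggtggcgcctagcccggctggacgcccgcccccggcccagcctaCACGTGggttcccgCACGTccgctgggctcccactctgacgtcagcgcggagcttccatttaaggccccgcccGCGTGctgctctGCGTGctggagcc
Hk2 held 2 ACGTG cores, at positions -226 and -52 from the gene start. Pdk1 held 2 GCGTG cores, Pfkp 4, and Ldha 7 cores in all with CACGTG at 2 positions. RefSeq windows were at hand for 43 of the 44 members, the exception being Idh3a. ACGTG or GCGTG was present in at least 1 window of 33 of these 43 members (76.7%), and of 12628 of all 27025 genes with a window (46.7%). CACGTG was present for 4 members (9.3%) and for 8.09% of all genes. Both cores contain the dinucleotide CG, and the windows of the members had a median GC content of 60.0% against 52.7% over all windows. Among the 8 members that differed between groups, Eno2 alone held none of these motifs in its window. A match in these letters describes the window and does not show a bound site.

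Values below are log2 processed signals relative to the 75th percentile of the array, so that 0 is the 75th percentile of all probes, and they are compared between groups for 1 probe at a time, never between genes. A gene was represented by its brightest probe and was called in a comparison at a Benjamini-Hochberg adjusted p under 0.05 in limma, adjusted over all 17990 genes tested; values after ± are standard errors of that fit. With 2 arrays a group, exact permutation could reach no p under 0.333, and the calls depend on the spread that limma shares across genes. Naive array 2 was the dimmest, with a 75th percentile of 639, followed by naive array 1 with 991, and the rest ranged from 1045 to 1337. The 7 general CD4 T cell markers were well above background in every group, and the summed signal of Foxp3, Il2ra and Ctla4 was 0.135 and 0.130 in naive, 3.46 and 3.94 in CD44lo, 2.56 and 2.72 in CD44hi and 16.4 and 15.2 in Treg, in multiples of the 75th percentile. All 3 of these genes were called higher in CD44lo and in CD44hi than in naive. The summed signal of 14 genes of dividing cells was 29.0 and 37.4 in naive, 30.9 and 34.0 in CD44lo, 95.7 and 125 in CD44hi and 58.3 and 85.0 in Treg. The sum weights the brightest of these genes most: their median log2 difference from naive was 1.50 in CD44lo, 5.22 in CD44hi and 4.19 in Treg, with 4, 12 and 12 of the 14 called higher. Of 8 B cell markers, 3 were well above background on both arrays in naive and 4, 5 and 4 in CD44lo, CD44hi and Treg, with sums of 0.210 to 0.380, 1.54 to 2.29, 3.39 to 4.08 and 4.16 to 4.32. Of 7 CD8 T and NK cell markers, 5, 5, 5 and 6 were well above background in naive, CD44lo, CD44hi and Treg, with sums of 18.0 to 22.8, 8.89 to 10.3, 5.42 to 6.03 and 6.20 to 6.64. Of 8 myeloid and dendritic markers, 7, 8, 8 and 7 were well above background in the same order. Their sums were 0.629 to 0.869, 0.840 to 1.01, 1.70 to 1.94 and 1.24 to 1.60. These sums too weight the brightest genes most. The 8 myeloid and dendritic markers had median log2 differences from naive of -0.49 in CD44lo, -0.47 in CD44hi and -0.76 in Treg. In each, 3 were above 0, Lyz2 and Cybb among them. For 6 B cell markers the medians were 1.16, 2.73 and 1.16, with 4, 4 and 3 above 0. For 6 CD8 T and NK cell markers they were -0.70, -1.605 and -0.83, with 2 above 0 in each. The sums of 5 erythroid and platelet markers lay between 0.116 and 0.487 over all arrays, with overlapping ranges in the 4 groups. They followed the array number: 0.366, 0.487, 0.390 and 0.389 on array 1 of naive, CD44lo, CD44hi and Treg. On array 2 they were 0.212, 0.136, 0.174 and 0.116. Hba-a1 lay between -1.65 and -1.56 on every array 1 and between -4.23 and -3.02 on every array 2. Pf4 and Ppbp went the other way, higher on array 2 in every group. The part of these other cell types, and of dividing cells, in the differences below was not tested. In such bulk samples, fewer cells expressing a gene and less RNA per cell cannot be told apart.

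Most of the enzyme genes did not differ detectably between the groups. All 44 were well above background on all 8 arrays, none was saturated, and 36 were called in none of the 6 comparisons. The matching count over all genes tested was not made, so this is not shown to be particular to these enzymes. CD44hi against naive alone called 27.8% of all genes tested and 18.2% of the members. The 8 members called at least once were the hexokinase Hk2, the phosphofructokinase Pfkp, the regulatory enzyme Pfkfb4, the enolases Eno2 and Eno3, the lactate dehydrogenase subunit Ldhb, the kinase Pdk1 and the mitochondrial isocitrate dehydrogenase Idh2. They made 24 calls, in each of which the arrays of the groups did not overlap. In the 6 comparisons, arrays of the compared groups did not overlap for 54.7% to 67.8% of all genes tested. Each slide held 1 array of every group, so groups that do not overlap necessarily have the same sign on both slides. With slide as a term, 17 of the 24 kept an adjusted p under 0.05.

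**Figure D1:**
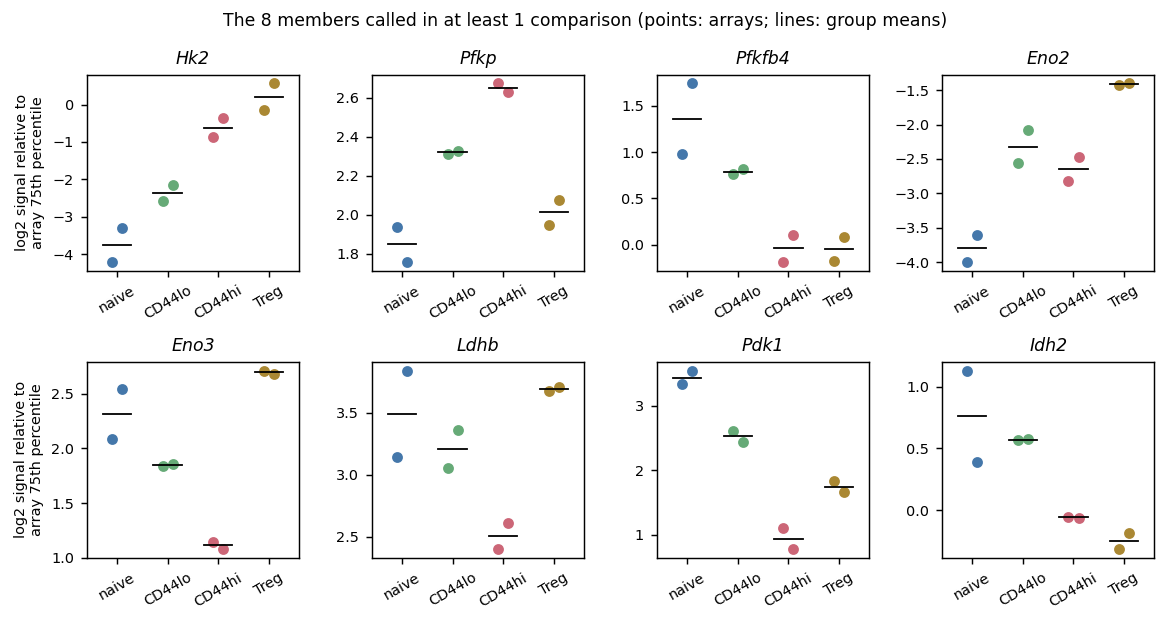
Log2 signal relative to the array's 75th percentile for the 8 members called in at least 1 comparison; points are single arrays, horizontal lines are means of the 2 arrays, and each panel has its own vertical axis. Hk2 had group means from -3.76 in naive to 0.21 in Treg, Pdk1 was highest in naive (3.43) and lowest in CD44hi (0.94), and Eno3 and Ldhb were lowest in CD44hi and highest in Treg.

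Against naive cells, CD44hi cells had higher Hk2, Pfkp and Eno2 and lower Pfkfb4, Eno3, Ldhb, Pdk1 and Idh2. These 8 calls are 18.2% of the members, beside 27.8% of all genes tested; 3 were higher (13.2% of all genes) and 5 lower (14.5% of all genes). Treg cells had higher Hk2 and Eno2 and lower Pfkfb4, Pdk1 and Idh2 than naive cells, 5 calls (11.4%) beside 21.9% of all genes; 2 were higher (11.6% of all genes) and 3 lower (10.3% of all genes). CD44lo cells had higher Eno2 and lower Pdk1, 2 calls (4.55%) beside 5.29% of all genes, with 1 higher (4.52% of all genes) and 1 lower (0.762% of all genes). The median log2 difference of the members from naive was -0.23 in CD44lo, -0.04 in CD44hi and -0.07 in Treg, beside -0.13, -0.15 and -0.20 over all genes tested. These 3 comparisons share the naive arrays.

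**Figure D2:**
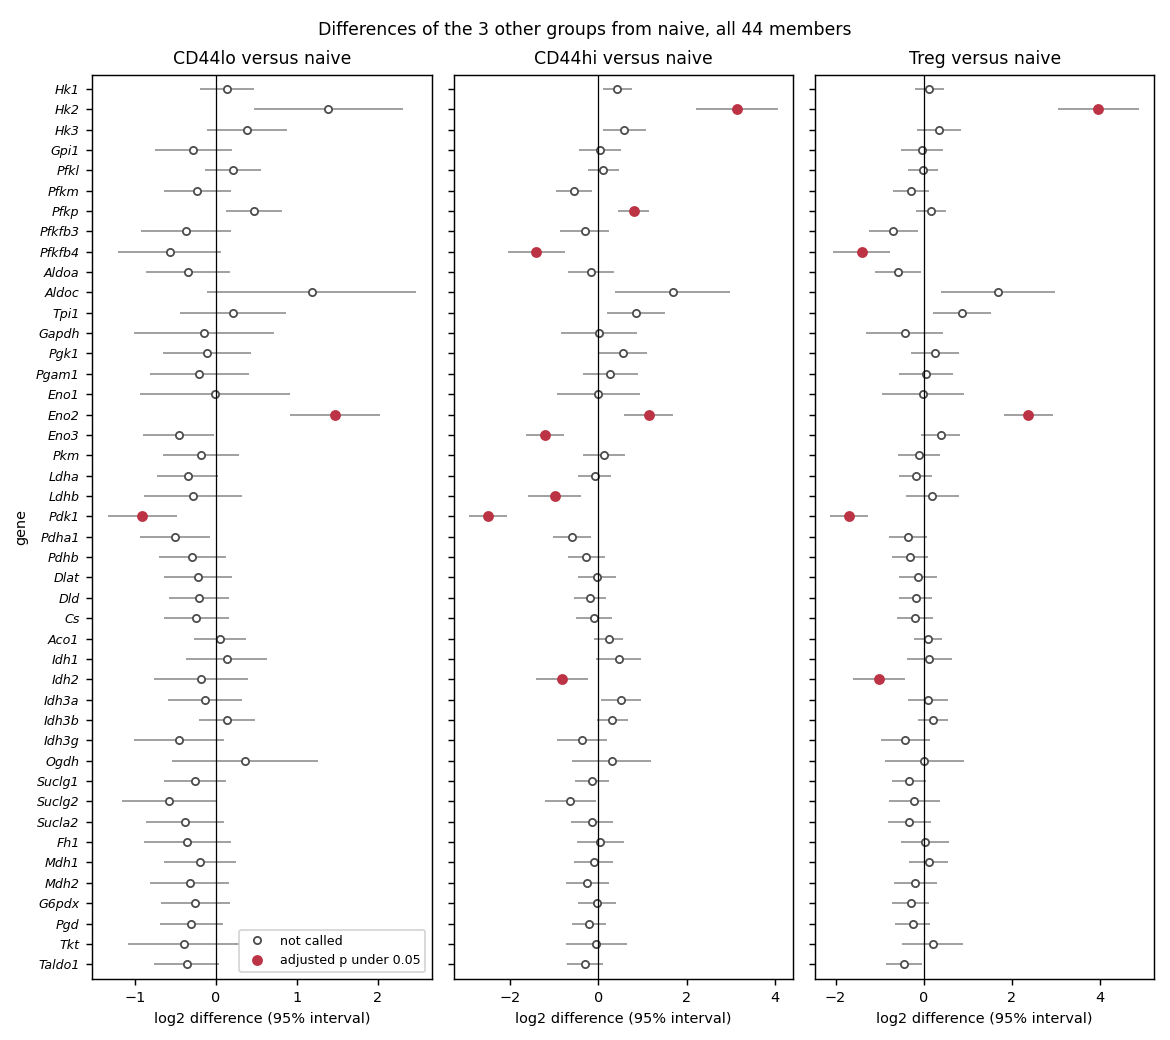
Log2 difference of CD44lo, CD44hi and Treg from naive for all 44 members, with 95% intervals of the limma fit; filled points have an adjusted p under 0.05. The differences span -2.49 (Pdk1) to 3.14 (Hk2) in CD44hi and -1.69 (Pdk1) to 3.97 (Hk2) in Treg, while most other intervals include 0.

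Among the groups other than naive, CD44hi differed from CD44lo in Hk2 (1 higher, beside 6.06% of all genes) and Pdk1 (1 lower, beside 3.31%), 2 calls (4.55%) beside 9.37% of all genes. Treg differed from CD44lo in Hk2 and Eno3, both higher, 2 calls beside 5.56% of all genes called, 3.69% higher and 1.87% lower. Treg differed from CD44hi in Eno2, Eno3, Ldhb and Pdk1, all higher in Treg, and in Pfkp, lower in Treg, 5 calls (11.4%) beside 8.19% of all genes; 4 were higher (4.15% of all genes) and 1 lower (4.04% of all genes). Arrays of the compared groups did not overlap for 28 members in CD44lo against naive, 24 in CD44hi against naive and 23 in Treg against naive, beside 54.7%, 62.6% and 63.6% of all genes tested. The same held for 35 members in CD44hi against CD44lo, 26 in Treg against CD44lo and 28 in Treg against CD44hi, beside 67.8%, 64.2% and 59.6%. By group means, 20 members were highest in naive, 15 in CD44hi, 7 in Treg and 2 in CD44lo, and 17 were lowest in CD44lo.

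The counts against naive moved most when naive array 1 was left out, a fit in which the lone naive array is assumed to vary like the other groups. Then 23 members were called in CD44hi against naive, 22 in Treg against naive and 29 in CD44lo against naive, 16, 17 and 23 of them lower, while the shares of all genes called rose to 50.8%, 50.8% and 39.7%. Leaving out naive array 2 gave 11, 8 and 1 members, beside 27.8%, 20.2% and 4.59% of all genes. The 2 naive arrays differed by a median of -0.41 over the members (array 1 minus array 2), against -0.04 to -0.13 in the other groups. The SD of this difference over the members was 0.51 in naive and between 0.19 and 0.23 in the other groups.

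**Figure D3:**
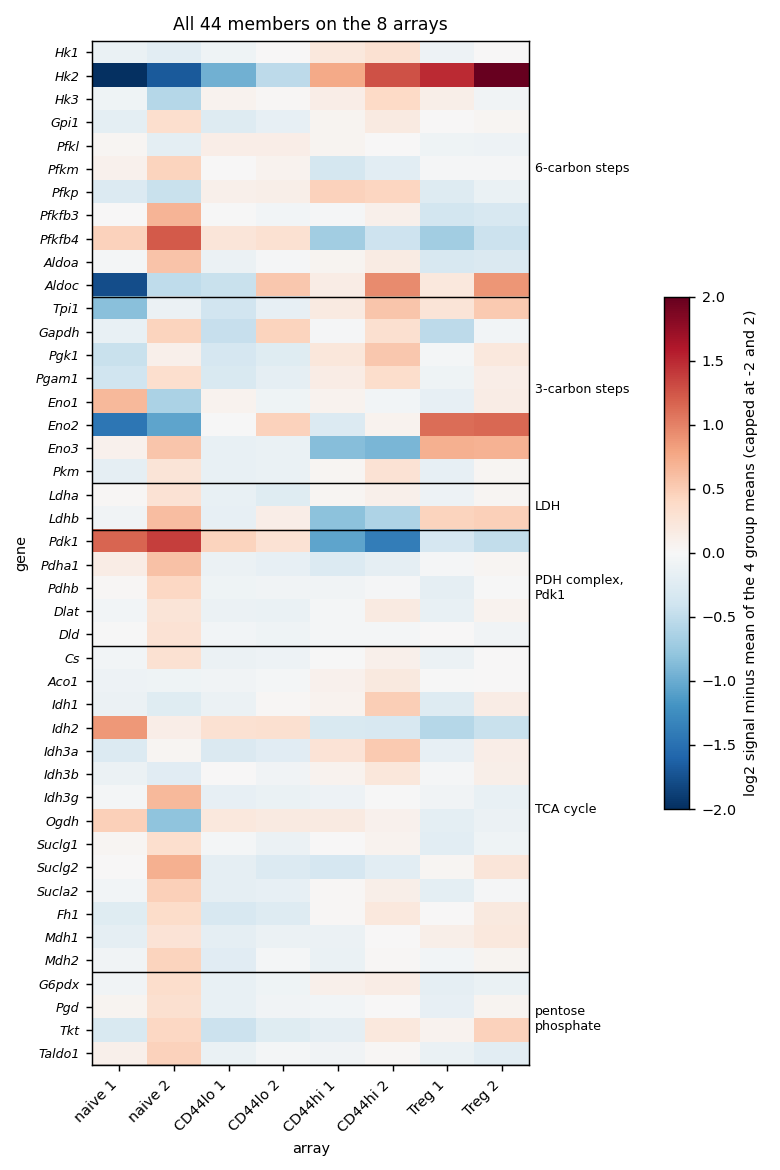
Log2 signal of all 44 members on each of the 8 arrays minus the mean of the 4 group means, with colours capped at -2 and 2 and lines between the steps of the pathway. Hk2, Eno2 and Pdk1 show the strongest contrasts between groups, and naive array 2 differs from naive array 1 across most of the rows.

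Hexokinases phosphorylate glucose at the entry to glycolysis, and Hk2 is the inducible member of the family. Its relative signal was -4.20 and -3.31 in naive, -2.59 and -2.15 in CD44lo, -0.87 and -0.37 in CD44hi and -0.14 and 0.56 in Treg. No 2 groups overlapped, in the rising order naive, CD44lo, CD44hi, Treg. Hk2 was 15.6-fold higher in Treg than in naive (log2 3.97 ± 0.39, adjusted p = 0.000714) and 8.80-fold higher in CD44hi than in naive (log2 3.14 ± 0.39, adjusted p = 0.00163). With normexp and quantile normalization these differences became log2 3.09 and 2.27, and the authors' deposited table gave log2 values of 3.17 and 2.35. It was 5.99-fold higher in Treg than in CD44lo (log2 2.58 ± 0.39, adjusted p = 0.0148) and 3.37-fold higher in CD44hi than in CD44lo (log2 1.75 ± 0.39, adjusted p = 0.0379). The neighbours in the order that missed the threshold were CD44lo against naive (log2 1.39, 95% interval 0.46 to 2.31, adjusted p = 0.115) and Treg against CD44hi (log2 0.83). The Treg over CD44lo call was lost without CD44lo array 1 (adjusted p = 0.114) or Treg array 2 (0.107). The CD44hi over CD44lo call was lost without any 1 of the CD44lo, CD44hi or Treg arrays (adjusted p from 0.0513 to 0.242). On the slide that held naive array 2, Hk2 differed from naive by 3.17 in Treg and 2.44 in CD44hi, and on the other slide by 4.77 and 3.84. The probe of Hk2 lies at chr6:82750613-82750672 on the minus strand (mm7 coordinates, per the file headers).

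Hk1, the hexokinase most tissues express constantly, did not follow Hk2. Its relative signal was 4.24 and 4.15 in naive, 4.28 and 4.37 in CD44lo, 4.58 and 4.68 in CD44hi and 4.27 and 4.38 in Treg. The CD44hi arrays were the highest, by log2 0.43 over naive (95% interval 0.10 to 0.77, adjusted p = 0.0599), and the Treg and CD44lo arrays overlapped. Relative to the naive mean, the log2 ratio of Hk2 to Hk1 was 1.08 and 1.43 in CD44lo, 2.50 and 2.91 in CD44hi and 3.54 and 4.14 in Treg. Hk3, a further hexokinase, differed from naive by 0.59 in CD44hi (95% interval 0.10 to 1.09, adjusted p = 0.0752).

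Phosphofructokinase commits sugar to glycolysis, and its subunits did not move together. Pfkp, the platelet-type subunit, was 1.94 and 1.76 in naive, 2.31 and 2.33 in CD44lo, 2.67 and 2.63 in CD44hi and 1.95 and 2.08 in Treg. On this probe, the brightest of the gene, CD44hi lay above all other arrays and CD44lo above naive and Treg. That order did not hold on the other probes. On the next brightest, CD44lo had the highest mean (1.14, beside 1.06 in CD44hi). On the dimmest, the CD44lo mean lay below that of naive (-3.48 against -3.27). Both differences given next had the same sign on all 3 probes. Pfkp was 1.75-fold higher in CD44hi than in naive (log2 0.80 ± 0.14, adjusted p = 0.00798). It was 1.56-fold lower in Treg than in CD44hi (log2 -0.64 ± 0.14, adjusted p = 0.0441). The difference from naive became log2 0.54 (adjusted p = 0.0457) with array medians in place of the 75th percentile and lost its call without CD44hi array 1 (adjusted p = 0.0524) or 2 (0.0545). The difference between Treg and CD44hi lost its call without any 1 of the CD44lo, CD44hi or Treg arrays (adjusted p from 0.124 to 0.256). Pfkm, the muscle-type subunit, had its highest mean in naive (1.81) and its lowest in CD44hi (1.26), a difference of -0.55 (95% interval -0.96 to -0.14, adjusted p = 0.0556). Pfkl, the liver-type subunit, had group means from 1.78 to 2.00. Relative to the naive mean, the log2 ratio of Pfkp to Pfkm was 1.45 and 1.25 in CD44hi, 0.73 and 0.67 in CD44lo and 0.39 and 0.52 in Treg.

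Pfkfb3 and Pfkfb4 make and break down fructose 2,6-bisphosphate, the activator of phosphofructokinase. Pfkfb4 was 0.98 and 1.74 in naive, 0.76 and 0.81 in CD44lo, -0.18 and 0.11 in CD44hi and -0.17 and 0.08 in Treg. The CD44hi and Treg arrays overlapped and lay below all naive and CD44lo arrays. Pfkfb4 was 2.64-fold lower in CD44hi (log2 -1.40 ± 0.27, adjusted p = 0.0104) and 2.65-fold lower in Treg (log2 -1.41 ± 0.27, adjusted p = 0.0124) than in naive. The call in CD44hi was lost without CD44hi array 1 (adjusted p = 0.0535) and that in Treg without Treg array 1 (0.0754) or 2 (0.0605). Pfkfb3 differed from naive by -0.69 in Treg (95% interval -1.24 to -0.13, adjusted p = 0.0789). Of the rest of the 6-carbon steps, Gpi1, the isomerase, and the aldolase Aldoa were not called, with means between 5.87 and 6.19 and between 6.15 and 6.73. Aldoc, a further aldolase, had naive arrays at -3.51 and -2.24 and all other arrays between -2.18 and -0.79, and its difference from naive of 1.69 in CD44hi had an adjusted p of 0.0599.

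Enolase makes phosphoenolpyruvate, and its 3 genes gave 3 different patterns. Eno2, the form best known from neurons, was -3.99 and -3.60 in naive, -2.56 and -2.09 in CD44lo, -2.83 and -2.48 in CD44hi and -1.43 and -1.40 in Treg. Both Treg arrays lay above every other array and both naive arrays below, while CD44lo and CD44hi overlapped. Eno2 was 5.20-fold higher in Treg than in naive (log2 2.38 ± 0.23, adjusted p = 0.000756), 2.77-fold higher in CD44lo (log2 1.47 ± 0.23, adjusted p = 0.0149) and 2.21-fold higher in CD44hi (log2 1.14 ± 0.23, adjusted p = 0.0136). With normexp and quantile normalization these became log2 1.61, 0.86 and 0.61, and the authors' deposited table gave log2 values of 1.68, 0.88 and 0.61. Eno2 was also 2.36-fold higher in Treg than in CD44hi (log2 1.24 ± 0.23, adjusted p = 0.0242). The call in CD44lo was lost without CD44lo array 2 (adjusted p = 0.114) or Treg array 2 (0.0506), that in CD44hi without CD44hi array 2 (0.0883), and that between Treg and CD44hi without any 1 of their 4 arrays (0.0601 to 0.155).

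Eno3, the form best known from muscle, was 2.08 and 2.54 in naive, 1.84 and 1.86 in CD44lo, 1.15 and 1.08 in CD44hi and 2.71 and 2.68 in Treg. CD44hi was lowest, then CD44lo, and Treg lay above all other arrays. Eno3 was 3.00-fold higher in Treg than in CD44hi (log2 1.58 ± 0.18, adjusted p = 0.00381) and 2.29-fold lower in CD44hi than in naive (log2 -1.20 ± 0.18, adjusted p = 0.00408). Its difference between Treg and CD44lo was 1.80-fold (log2 0.85 ± 0.18, adjusted p = 0.0486) and was lost without any 1 of the CD44lo, CD44hi or Treg arrays (adjusted p from 0.0924 to 0.287). Eno1, the form most cells use, was 1.41 and 0.12 in naive and between 0.60 and 0.92 on the other 6 arrays. The other groups all lay between the naive arrays, and the group means spanned 0.02. Without naive array 1, Eno1 was higher than naive by log2 0.63 in both CD44lo (adjusted p = 0.0450) and Treg (adjusted p = 0.0363), and without naive array 2 the differences were -0.65 in both (adjusted p = 0.155 and 0.0650).

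Of the other members at the 3-carbon steps, none was called in limma. At an unadjusted p under 0.05, Tpi1 passed in CD44hi and Treg against naive and in Treg against CD44lo. Pgk1 passed in CD44hi against naive and against CD44lo. The isomerase Tpi1 was 1.99 and 2.71 in naive, 2.45 and 2.66 in CD44lo, 3.01 and 3.38 in CD44hi and 3.08 and 3.35 in Treg. All CD44hi and Treg arrays lay above all naive and CD44lo arrays, yet the differences from naive of 0.85 in CD44hi and 0.87 in Treg had adjusted p of 0.0612 and 0.0671; they passed the threshold under 7 and 6 of the 20 alternatives. The phosphoglycerate kinase Pgk1 had its highest mean in CD44hi (4.71) and its lowest in CD44lo (4.04). The mutase Pgam1 and the pyruvate kinase Pkm spanned 0.48 and 0.31 between group means. Gapdh was measured by 1 probe, listed under its gene ID and not its symbol, with all arrays between -2.89 and -1.92. Gapdh has many near-identical pseudogene copies in the mouse genome, so its value is uncertain.

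Lactate dehydrogenase is a tetramer of subunits made from Ldha and Ldhb, and Ldhb alone was called. Ldhb was 3.15 and 3.84 in naive, 3.05 and 3.36 in CD44lo, 2.40 and 2.61 in CD44hi and 3.68 and 3.71 in Treg. The CD44hi arrays lay below all others, and naive overlapped with CD44lo and Treg. Ldhb was 2.27-fold higher in Treg than in CD44hi (log2 1.19 ± 0.25, adjusted p = 0.0366) and 1.98-fold lower in CD44hi than in naive (log2 -0.99 ± 0.25, adjusted p = 0.0295). The first of these was lost without any 1 of the CD44lo, CD44hi or Treg arrays (adjusted p from 0.0696 to 0.199). The second was lost without any 1 of the same arrays (0.0545 to 0.123) and without naive array 2, where it was -0.64 (0.0565). Ldha was 5.84 and 6.11 in naive, 5.67 and 5.59 in CD44lo, 5.86 and 5.93 in CD44hi and 5.72 and 5.87 in Treg, and its difference in CD44hi from naive was -0.08 (95% interval -0.46 to 0.29). Relative to the naive mean, the log2 ratio of Ldha to Ldhb was 0.97 and 0.84 in CD44hi, 0.14 and -0.26 in CD44lo and -0.44 and -0.32 in Treg, with naive at 0.21 and -0.21.

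Pdk1 was called in 5 of the 6 comparisons, the most of any member. It was 3.33 and 3.54 in naive, 2.60 and 2.44 in CD44lo, 1.10 and 0.78 in CD44hi and 1.83 and 1.66 in Treg. No 2 groups overlapped, in the falling order naive, CD44lo, Treg, CD44hi. Pdk1 was 5.63-fold lower in CD44hi than in naive (log2 -2.49 ± 0.18, adjusted p = 0.000183), 3.22-fold lower in Treg than in naive (log2 -1.69 ± 0.18, adjusted p = 0.00102) and 2.99-fold lower in CD44hi than in CD44lo (log2 -1.58 ± 0.18, adjusted p = 0.00409). On the slide with naive array 2 its differences from naive were -2.44 in CD44hi and -1.71 in Treg, and on the other slide -2.55 and -1.67. It was also 1.88-fold lower in CD44lo than in naive (log2 -0.91 ± 0.18, adjusted p = 0.0360) and 1.75-fold higher in Treg than in CD44hi (log2 0.81 ± 0.18, adjusted p = 0.0426). The call in CD44lo was lost without naive array 2 or any 1 of the CD44lo, CD44hi or Treg arrays (adjusted p from 0.0556 to 0.278), and that between Treg and CD44hi without any 1 of the CD44lo, CD44hi or Treg arrays (0.0528 to 0.253). The second probe of Pdk1 gave the same sign in every one of these comparisons, with 3.11 and 3.49 in naive and 1.13 and 0.82 in CD44hi.

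The complex that Pdk1 inhibits was not called in any comparison. Its members Pdha1 and Pdhb, of the decarboxylase, Dlat, the acetyltransferase, and Dld, the dehydrogenase shared with the TCA cycle, all had their highest mean in naive. Pdha1 was 2.85 and 3.29 in naive, 2.58 and 2.53 in CD44lo, 2.42 and 2.53 in CD44hi and 2.68 and 2.73 in Treg. Both naive arrays lay above the other 6, and the difference of -0.59 in CD44hi (95% interval -1.02 to -0.16) had an adjusted p of 0.0522 and passed the threshold under 8 of the 20 alternatives. At an unadjusted p under 0.05, Pdha1 alone of these genes passed in limma, in CD44lo and CD44hi against naive. Group means of the other 3 genes spanned 0.31, 0.22 and 0.21.

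Of 14 genes of the TCA cycle and its cytosolic counterparts, Idh2 alone was called. Idh2, which makes 2-oxoglutarate with NADP in mitochondria, was 1.13 and 0.39 in naive, 0.56 and 0.58 in CD44lo, -0.05 and -0.06 in CD44hi and -0.32 and -0.19 in Treg. The Treg arrays lay below all others and the CD44hi arrays next, while CD44lo lay between the naive arrays. Idh2 was 2.02-fold lower in Treg (log2 -1.01 ± 0.24, adjusted p = 0.0294) and 1.76-fold lower in CD44hi (log2 -0.82 ± 0.24, adjusted p = 0.0489) than in naive. Without naive array 1 the differences were -0.64 and -0.45, and both calls were lost without any 1 of the CD44lo, CD44hi or Treg arrays (adjusted p from 0.0536 to 0.135 in Treg and from 0.0871 to 0.171 in CD44hi). Idh3a, a subunit of the NAD-dependent isocitrate dehydrogenase, was 2.11 and 2.42 in naive, 2.10 and 2.15 in CD44lo, 2.65 and 2.90 in CD44hi and 2.21 and 2.51 in Treg. The CD44hi arrays lay above all others, by 0.65 over CD44lo (95% interval 0.19 to 1.10, adjusted p = 0.0949). The related subunits Idh3b and Idh3g and the cytosolic Idh1 had group means spanning 0.31, 0.46 and 0.46.

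Citrate synthase, Cs, which opens the cycle, had group means between 5.03 and 5.27, and the cytosolic aconitase Aco1 between 1.83 and 2.07. The malate dehydrogenases Mdh1 and Mdh2 and the fumarase Fh1 spanned 0.31, 0.32 and 0.41. The succinyl-CoA ligase subunits Suclg1, Sucla2 and Suclg2 were highest in naive, spanning 0.33, 0.39 and 0.63. Ogdh, of the 2-oxoglutarate dehydrogenase complex, was 1.41 and 0.12 in naive and between 0.74 and 1.14 on the other arrays. All other arrays lay between the naive ones, and the difference of Treg from naive was 0.66 without naive array 1 (adjusted p = 0.00839) and -0.63 without naive array 2 (adjusted p = 0.0187).

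None of the 4 members of the pentose phosphate pathway was called in limma, and at an unadjusted p under 0.05 Taldo1 alone passed, in Treg against naive. H6pd, a related enzyme among the other genes listed below, was lower in CD44hi than in naive (log2 -0.76 ± 0.16, adjusted p = 0.0167). That call held under 15 of 20 alternatives and was lost without either CD44hi array. G6pdx, which opens the pathway and makes NADPH, was 2.16 and 2.60 in naive, 2.09 and 2.15 in CD44lo, 2.34 and 2.38 in CD44hi and 2.06 and 2.11 in Treg. All CD44hi arrays lay within the naive range. Pgd, the next NADPH-making enzyme, had means between 2.32 and 2.63. Tkt, the transketolase, had its highest mean in Treg (5.12) and its lowest in CD44lo (4.51), and Taldo1, the transaldolase, its highest in naive (5.93) and its lowest in Treg (5.48). The difference of Taldo1 between Treg and naive was -0.45 (95% interval -0.85 to -0.05, adjusted p = 0.102).

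Eno1, Ogdh and Idh2 are among the genes in which naive array 2 read lower than naive array 1, against the members' general shift. For some genes this difference varied with the position of a probe along the gene. Eno1 and Idh2, with 1 probe each, could not show this. Of the members, 22 had 2 or more placed probes well above background on all arrays. The 5 such probes of Hk1 gave array 2 minus array 1 differences in naive of -0.08 at the 3′-most probe and of -1.62, -1.84, -2.21 and -0.84 at probes 819, 2461, 6515 and 46285 bases further 5′ (genomic distance, introns included). In CD44lo, CD44hi and Treg the same 5 probes gave values between -0.37 and 0.47. The 3′-most and 5′-most probes of Dld gave 0.29 and -1.58 in naive, those of Pgd 0.27 and -0.70, and those of Suclg2 0.70 and -0.51. Members that went the other way included Pdha1 (-0.002 and 0.44), Sucla2 (0.09 and 0.52) and Tkt (0.33 and 0.72). The 2 probes of Ogdh, 70 bases apart, gave -1.28 and -1.30. Over 5131 genes with such probes, the 5′-most probe was lower than the 3′-most by more than log2 1 in this difference for 19.9% of genes in naive, against 0.292%, 0.682% and 0.312% in CD44lo, CD44hi and Treg, and higher by more than log2 1 for 2.2% in naive. For Pdk1 the probe 2132 bases further 5′ gave 0.38 against 0.21 at the 3′-most, and for Eno2 the probe 497 bases further 5′ gave 0.40 against 0.53. For Pfkp the 3′-most probe gave 0.95 and the probes 2594 and 9172 bases further 5′ gave -0.18 and -0.27, the nearer of these being the one that stood for the gene. Hk2, Pfkfb4, Eno3, Ldhb and Idh2 had no second placed probe well above background on all arrays to compare.

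**Figure D4:**
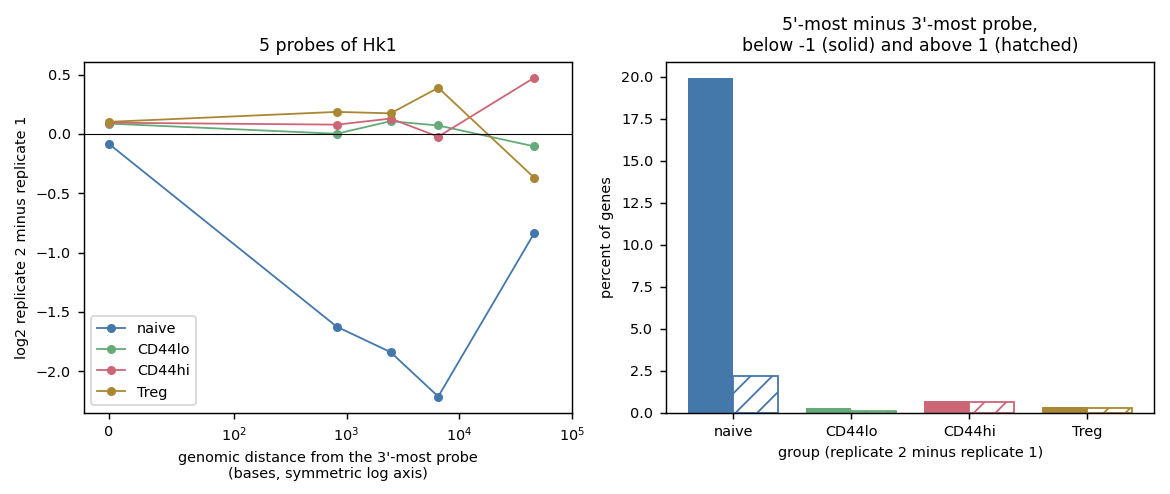
Left, log2 signal of replicate 2 minus replicate 1 for 5 probes of Hk1 against their genomic distance from the 3′-most probe, 1 line per group. Right, percent of 5131 genes whose 5′-most probe lies more than log2 1 below (solid) or above (hatched) the 3′-most in the same difference; naive stands at 19.9% below, the other groups at 0.682% or less.

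Other genes of glucose metabolism were taken as a list of 47 transporters, isozymes, regulators and neighbouring enzymes, of which 37 could be tested. In CD44hi against naive 6 were higher and 7 lower, in Treg against naive 5 and 5, and in CD44lo against naive 3 and 0. These calls are 35.1%, 27% and 8.11% of the 37, beside 27.8%, 21.9% and 5.29% of all genes tested. Between the other groups 1 was higher in CD44hi than CD44lo. In Treg, 1 was higher and 1 lower than in CD44lo, and 2 were higher and 2 lower than in CD44hi. These are 2.7%, 5.41% and 10.8% of the 37, beside 9.37%, 5.56% and 8.19% of all genes tested. Slc2a6, a hexose transporter, rose 6.88-fold in CD44lo (log2 2.78 ± 0.28, adjusted p = 0.00203), 5.32-fold in CD44hi (adjusted p = 0.00125) and 4.29-fold in Treg (adjusted p = 0.00267). Its signal was -4.94 and -4.82 in naive and between -2.79 and -1.79 on the other arrays, so these folds rest on low naive signals. Slc2a3, the high-affinity glucose transporter, was 1.63 and 1.84 in naive, 2.20 and 2.25 in CD44lo, 1.74 and 1.78 in CD44hi and 3.07 and 3.13 in Treg. Treg lay above all other groups and CD44hi lay within the naive range, and Slc2a3 was 2.58-fold higher in Treg than in naive (adjusted p = 0.00101) and 2.53-fold higher than in CD44hi (adjusted p = 0.00313). Slc16a3, a lactate exporter, rose 2.93-fold in CD44lo (adjusted p = 0.0465), 2.57-fold in CD44hi (adjusted p = 0.0231) and 3.65-fold in Treg (adjusted p = 0.00870). Its call in CD44lo held under 6 of 20 alternatives and was lost with slide as a term (adjusted p = 0.0740) and without naive array 2 or any 1 of the CD44lo, CD44hi or Treg arrays (adjusted p from 0.0579 to 0.282). Its call in CD44hi was lost without naive array 1, CD44hi array 2 or Treg array 2 (adjusted p = 0.0623, 0.127 and 0.0538), and that in Treg without Treg array 2 (adjusted p = 0.0656). The call of Slc2a3 in Treg against naive was lost when its probes were averaged (adjusted p = 0.0670). Slc2a1, the most widely expressed glucose transporter, had all arrays outside naive between 2.18 and 2.36 and was not called.

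Of the regulators, Myc and Egln3 differed between CD44hi and Treg. Myc was 2.89 and 3.69 in naive, 2.35 and 2.42 in CD44lo, 1.45 and 1.37 in CD44hi and 3.62 and 3.37 in Treg. CD44hi lay below all other arrays and Treg within the naive range, and Myc was 3.68-fold lower in CD44hi than in naive (log2 -1.88 ± 0.27, adjusted p = 0.00308) and 4.24-fold higher in Treg than in CD44hi (log2 2.09 ± 0.27, adjusted p = 0.00569), the latter lost without Treg array 1 (adjusted p = 0.0526). Hif1a rose 1.87-fold in CD44hi over naive (log2 0.90 ± 0.24, adjusted p = 0.0337), a call held under 10 of 20 alternatives and lost without naive array 1 or any 1 of the CD44lo, CD44hi or Treg arrays (adjusted p from 0.0569 to 0.167). Egln3, a prolyl hydroxylase acting on Hif1a, was -4.05 and -3.53 in naive, -1.56 and -1.09 in CD44lo, 0.00 and 0.58 in CD44hi and -1.76 and -1.51 in Treg. It was 16.9-fold higher in CD44hi than in naive (log2 4.08 ± 0.29, adjusted p = 0.000175), 5.52-fold higher in CD44lo and 4.46-fold higher in Treg, and it was 3.79-fold lower in Treg than in CD44hi (adjusted p = 0.0106), the last call lost without CD44hi array 2, Treg array 1 or Treg array 2 (adjusted p = 0.0540, 0.0842 and 0.0652). Of the other pyruvate dehydrogenase kinases, Pdk3 was 1.81-fold higher (adjusted p = 0.0223) and Pdk2 1.50-fold lower (adjusted p = 0.0369) in CD44hi than in naive. The call of Pdk3 was lost without any 1 of the CD44lo or CD44hi arrays (adjusted p from 0.0507 to 0.135). That of Pdk2 held under 10 of 20 alternatives and was lost with slide as a term (adjusted p = 0.0592) and without any 1 of the CD44lo, CD44hi or Treg arrays (adjusted p from 0.0758 to 0.167). Pfkfb2, also of the Pfkfb family, was 2.99-fold lower in CD44hi (adjusted p = 0.00867) and 2.81-fold lower in Treg (adjusted p = 0.0132) than in naive. The first of these calls was lost without CD44hi array 2 (adjusted p = 0.0520), the other without naive array 2 or Treg array 2 (adjusted p = 0.0603 and 0.109).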

How the data were processed

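Per the file headers, the authors read the arrays with Agilent Feature Extraction 9.5.1.1, and the deposited scanner files hold each spot's processed signal as an intensity, background-subtracted within the array and not normalized between arrays, with the mean, median and background intensities and quality flags (unit other, per the file headers). The authors' deposited value table is log2; column medians were 6.86 to 6.88 and quantiles were shared between columns. The submitters' processing notes list limma alone.

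Spots of a probe were averaged, leaving 41174 probes. Each array's log2 processed signals were set relative to their 75th percentile over non-control probes. The brightest probe stood for a gene, which was tested if both arrays of any group read it well above background. All 8 arrays entered 1 fit in limma 3.58.1 (R 4.3.3; lmFit, eBayes, 4 residual and 2.62 prior degrees of freedom), with 2-sided Benjamini-Hochberg adjusted p over 17990 genes; the fit was tested on simulated data. That the number of arrays is 2 per group limits the precision. The members and lists were chosen with earlier results of these data known. Members called in any comparison were named with their values, and other genes of the pathway where called. For the latter a limit of 8 a comparison by size was set, and more were named in CD44hi and Treg against naive. Further members are named to account for all of them. Slc2a1 was named although not called, after its values were seen. Of the members' 77 probes, 74 carried the member's name and 3 an alias or gene ID. Alternatives were normexp (offset 50), other scalings, the deposited table, other filters, probe rules, slide, replicate number, 2-group fits, an intensity trend and each array left out.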

Additional observations from a re-analysis of the deposited data

How the results depend on the processing

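Of the 24 calls of members, 8 held under all 20 alternatives: Hk2 in CD44hi and in Treg against naive, Pdk1 in the same comparisons and in CD44hi against CD44lo, Eno2 in Treg against naive, and Eno3 in CD44hi against naive and in Treg against CD44hi. No call changed sign. Idh2 in CD44hi against naive held under 7 alternatives, Pfkp in Treg against CD44hi under 8, and Eno3 in Treg against CD44lo, Pdk1 in CD44lo against naive and Pdk1 in Treg against CD44hi under 9 each.

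Counts of members called are given in the order CD44lo, CD44hi and Treg against naive, CD44hi against CD44lo, and Treg against CD44lo and CD44hi, where 2, 8, 5, 2, 2 and 5 were called in the fit reported. The share of all genes called moved with the setting too: in CD44hi against naive it was 27.8% in the fit reported, 34.9% with normexp, 34.6% in the authors' deposited table, 33.3% with quantile normalization, 42.4% with array medians, 11.3% without a filter, 24.9% with probes averaged, 26.8% with every probe, 32.2% with a trend, 25.1% with slide as a term, 14.5% with only the 2 groups, 30% with the block and 50.8% without naive array 1. Normexp with quantile normalization and the authors' deposited table both gave 2, 19, 9, 7, 4 and 6, quantile normalization of the processed signal 0, 14, 7, 2, 3 and 5, and array medians 2, 11, 8, 2, 1 and 3. Without a filter on dim probes the counts were 0, 6, 4, 1, 0 and 1, with probes averaged within a gene 2, 8, 5, 2, 1 and 3, and with every probe as its own feature 2, 7, 5, 2, 1 and 4. An intensity trend gave 2, 14, 8, 4, 3 and 5, slide as a term 1, 7, 5, 1, 1 and 2 (7 calls lost, adjusted p from 0.0547 to 0.0791), and the fit of only the 2 groups compared 0, 5, 4, 4, 5 and 4. The replicate number as a block gave 4, 13, 7, 3, 3 and 6, and Idh2 in CD44hi against naive was the 1 call not kept (adjusted p = 0.0526). Same-numbered arrays had correlations of their deviations from 0.0563 to 0.331, positive in all 6 pairs of groups. The labels do not say what the numbers share, and with 2 numbers the samples were not treated as paired. Leaving out 1 array gave 0 to 29, 4 to 23, 3 to 22, 1 to 6, 0 to 4 and 1 to 6. Array medians moved the median difference of all genes tested to -0.33, -0.42 and -0.41 in CD44lo, CD44hi and Treg against naive, and the split of the members' calls into higher and lower in Treg against naive to 2 and 6. In CD44hi against naive the deposited table gave 12 higher and 7 lower, where the reported fit had 3 and 5.

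Values that turned sign into a call were Aldoa in CD44hi against naive (0.33 with normexp, adjusted p = 0.0446, and 0.35 in the authors' deposited table, adjusted p = 0.0365), Eno1 in CD44lo (0.63) and Treg (0.63) against naive without naive array 1, where leaving out naive array 2 gave -0.65 in both, and Ogdh in Treg against naive (-0.63) without naive array 2, where leaving out naive array 1 gave 0.66. The cause was not tested for these or for the counts. Members with low signals, such as Hk3, Idh1, Eno2 and, in naive, Hk2 (-4.20 and -3.31), lie nearer to background than the others. The fold differences of Hk2 from naive rest on these low naive signals. The same holds for those of Slc2a6 (-4.94 and -4.82 in naive) and Egln3 (-4.05 and -3.53 in naive). Having 2 arrays a group limits every interval.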

Other observations

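Other genes around the pathway differed as well. Both glycerol 3-phosphate dehydrogenases, which pass cytosolic reducing equivalents toward the mitochondrion, were lower than in naive: Gpd2 fell by 1.54 on the log2 scale in Treg (adjusted p = 0.00121) and by 0.90 in CD44hi (adjusted p = 0.00955), and Gpd1 by 1.30 in CD44hi (adjusted p = 0.00609) and by 0.78 in Treg (adjusted p = 0.0455). Gpd2 also fell by 0.86 in Treg against CD44lo (adjusted p = 0.0370). The call of Gpd1 in Treg held under 9 of 20 alternatives and was lost with slide as a term (adjusted p = 0.0711) and without naive array 2 or any 1 of the CD44lo, CD44hi or Treg arrays (adjusted p from 0.0743 to 0.232). That of Gpd2 against CD44lo held under 11 and was lost with slide as a term (adjusted p = 0.0744) and without any 1 of the CD44lo, CD44hi or Treg arrays (adjusted p from 0.0654 to 0.293), and that of Gpd2 in CD44hi was lost without CD44hi array 2 (adjusted p = 0.0765). The malic enzyme Me2 fell by 0.70 in both CD44hi (adjusted p = 0.0120) and Treg (adjusted p = 0.0142), calls lost without either CD44hi array (adjusted p = 0.0549 and 0.0960) and without either Treg array (adjusted p = 0.0754 and 0.117). Pck2, the mitochondrial phosphoenolpyruvate carboxykinase, was 1.64-fold higher in Treg than in naive (adjusted p = 0.0290), which was lost without any 1 of the CD44lo, CD44hi or Treg arrays (adjusted p from 0.0599 to 0.143). Pgam2, a mutase best known from muscle, was 6.51-fold higher in CD44hi than in naive (adjusted p = 0.00663) and 4.47-fold lower in Treg than in CD44hi (adjusted p = 0.0368), at signals of -5.91 to -2.78 on all arrays, 7 of which were well above background. Its difference from naive was log2 1.07 with normexp, against 2.70 in the reported fit, and its call in Treg against CD44hi was lost with slide as a term (adjusted p = 0.0620) and without either naive array, CD44hi array 2 or either Treg array (adjusted p from 0.0671 to 0.223).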
